A study of Mus musculus with 16 samples.

Results

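Small nucleolar RNA (snoRNA) genes were described here in 16 mouse osteosarcomas. The members were the genes of the deposited count table that the annotation types as snoRNA and whose reads over the 16 tumors summed to 160 or more. There were 67 of them in a table of 25054 genes, and 148 further snoRNA genes fell under the minimum. By name, 12 were box C/D genes (Snord), 13 were box H/ACA genes (Snora) and 42 had other names, of which 38 were Gm numbers, 2 Scarna and 2 Rnu. The rule used the gene type and the summed counts only, so the totals describe the choice and were not tested.

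SnoRNAs are short nuclear RNAs that pair with a target RNA and direct its chemical modification, mostly in ribosomal RNA (rRNA). Box C/D snoRNAs work with the methyltransferase fibrillarin and guide methylation of the ribose, and box H/ACA snoRNAs work with the pseudouridine synthase dyskerin. In mice most of them are cut out of the introns of host genes, many of which encode ribosomal or translation proteins, while a few are transcribed from promoters of their own or take part in cleavage of the rRNA precursor. Scarna genes encode the related RNAs of Cajal bodies, which act on spliceosomal RNAs.

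All 16 tumors came from mice that carried *OsxCreERT2*, a tamoxifen-inducible Cre driven by the Osterix promoter of the osteoblast lineage, together with floxed *p53* and floxed *Rb1*. The 8 KO tumors (OsxCreERT2+/-;p53fl/fl;Rb1fl/fl;Arid1afl/fl) had floxed *Arid1a* in addition, and the 8 WT tumors (OsxCreERT2+/-;p53fl/fl;Rb1fl/fl) did not. Both groups received tamoxifen at 1 month of age by intraperitoneal injection, at 400 μg per gram of mouse, and were older than 6 months, with both sexes present and the sex of single tumors not labeled. The tumor names gave 8 KO mice (Massa, Medusa, Montana, Ohio, Prince, Grilka, Zelda and Oregon) and 4 WT mice, since N42 gave 4 tumors, N43 gave 2, and N215 and N25 gave 1 each. Body sites were labeled for WT tumors only and 1 of them, from N25, was lung. P-values over tumors therefore measured a spread that includes tumors of the same mouse.

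Total RNA was depleted of rRNA and read from one end for 50 cycles. The libraries held 1109487 to 15059640 counts in KO and 7806160 to 16962329 in WT, and 3 counts equaled 0.203 to 6.69 CPM (counts per 1e+06 of the normalized library size) in KO and 0.146 to 0.340 in WT. Massa and Grilka were the shallowest, with 6.69 and 4.03 CPM for 3 counts. Genes typed as rRNA, counted together with *Mir6236*, an entry typed as microRNA, took 0.445% to 19.2% of the counts in KO and 0.0980% to 1.59% in WT. Summed skeletal muscle markers (6 genes) reached 89915 CPM in Montana and 142106 in Oregon against a median of 1496 in WT, lung markers (4 genes) 9645 CPM in Massa and 24632 in the N25 tumor, and salivary gland markers (4 genes) 19446 CPM in Prince. Zelda had the highest sums of liver markers (4 genes, 1038 CPM, at most 0.907 in WT) and erythroid markers (5 genes, 1387 CPM, at most 470 in WT). The 8 osteoblast markers summed to 714 to 59758 CPM in KO and 2895 to 83608 in WT, mostly from the collagen genes *Col1a1* and *Col1a2*. Defining markers were near absent in some tumors. *Sp7* (Osterix) was at 0 CPM in Massa and 0.166 in Prince, *Ibsp* (bone sialoprotein) at 0.166 in Prince and 3.29 in N215, and *Bglap* (osteocalcin) at 0 in Massa and N215 and at 0.258 to 0.839 in Montana, Prince, Oregon and the N25 tumor. *Arid1a* itself, counted over the whole gene, lay at 107 to 269.9 CPM in KO and 125 to 236 in WT (log2 fold change 0.16, edgeR adjusted p = 0.715), which does not separate the groups; the floxed exons were not counted apart.

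The sequences below are those of members that carried most of the counts or the differences between the groups, written 5′ to 3′ as the GENCODE vM21 transcripts give them (GRCm38). Capitals mark the letters searched on the transcript strand, TGATGA starting in the first 25 bases (box C) with CTGA in the last 15 (box D), or ACA in the last 10. Snord17 lay at chr2:144265979-144266216, minus strand, in an intron of *Snx5*, and Snord15a at chr7:99482785-99482932, minus strand, in an intron of *Rps3*. Snord104 (chr11:106500993-106501062, plus strand) is shown as a box C/D member of usual size, with no annotated host. Snora73b (chr4:132352322-132352526, minus strand) and Snora73a (chr4:132352775-132352979, minus strand) lay within *Rcc1*, the latter over an exon of *Snhg3*. Snora23 (chr7:110046364-110046547, plus strand) lay in an intron of *Ipo7* and Gm24119 (chr10:91118291-91118536, minus strand) in an intron of *Slc25a3*.
Snord17: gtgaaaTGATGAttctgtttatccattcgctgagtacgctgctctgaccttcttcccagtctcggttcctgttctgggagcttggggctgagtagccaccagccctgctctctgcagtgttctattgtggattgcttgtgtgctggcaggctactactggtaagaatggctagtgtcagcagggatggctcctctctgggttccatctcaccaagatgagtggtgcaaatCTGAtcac
Snord15a: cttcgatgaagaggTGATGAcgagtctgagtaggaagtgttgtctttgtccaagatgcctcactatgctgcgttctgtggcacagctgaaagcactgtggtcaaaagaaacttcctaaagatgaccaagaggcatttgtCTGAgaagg
Snord104: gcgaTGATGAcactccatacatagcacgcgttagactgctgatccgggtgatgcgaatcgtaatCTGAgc
Snora73b: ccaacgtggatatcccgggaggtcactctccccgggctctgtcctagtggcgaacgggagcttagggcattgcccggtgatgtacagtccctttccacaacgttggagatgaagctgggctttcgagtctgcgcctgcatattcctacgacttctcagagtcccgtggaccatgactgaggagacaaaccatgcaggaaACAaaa
Snora73a: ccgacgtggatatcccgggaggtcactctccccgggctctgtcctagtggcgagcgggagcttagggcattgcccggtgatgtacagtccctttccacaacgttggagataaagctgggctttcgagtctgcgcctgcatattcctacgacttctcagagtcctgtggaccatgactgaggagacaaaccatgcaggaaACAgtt
Snora23: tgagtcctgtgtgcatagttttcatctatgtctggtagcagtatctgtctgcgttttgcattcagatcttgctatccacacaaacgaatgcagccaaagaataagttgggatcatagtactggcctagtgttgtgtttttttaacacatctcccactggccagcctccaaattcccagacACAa
Gm24119: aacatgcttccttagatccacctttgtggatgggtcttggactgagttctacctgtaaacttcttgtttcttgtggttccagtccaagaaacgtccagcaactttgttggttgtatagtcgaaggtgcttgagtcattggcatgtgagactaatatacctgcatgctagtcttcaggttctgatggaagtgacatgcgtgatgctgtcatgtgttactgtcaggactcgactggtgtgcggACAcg

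Of the 12 Snord members, 7 held both sets of letters and 5 did not, against 69.4% of the 98 Snord genes in the annotation. All 13 Snora members held ACA near the end, against 95.2% of the 42 annotated Snora genes. Among the 42 members with other names, 7 held the box C and D letters, 25 held ACA near the end without them and 10 held neither, so by letters 39 of the 67 members were ACA genes and 14 were C and D genes. Over all 1507 annotated snoRNA genes the C and D letters were in 20.3% and ACA near the end in 47.4%. A match describes the letters only, and a gene without one may hold a variant box.

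Long genes were frequent among the box C/D members. The minimum was set on summed counts that were not scaled by length, so this frequency describes the choice. Of the 25 Snord genes in the table under the minimum, 0 were 110 bases or longer. The 12 box C/D members had a median length of 83 bases (65 to 238), and 5 of them were 110 bases or longer, although only 9 of the 98 annotated Snord genes are that long: Snord17 (238 bases), Snord15a (148), Snord118 (135), Snord89 (110) and Snord8 (110). The 13 box H/ACA members measured 128 to 205 bases (median 137). Altogether 54 of the 67 members were 110 bases or longer, and they held 95.3% to 99.9% of the members' counts in every tumor. The 3 members just inside the minimum were Gm24494 with 163 counts, Gm25188 with 170 and Snord8 with 173, and the 3 genes just outside were Snord49a with 157, Snord13 with 156 and Gm23639 with 154.

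A few genes carried most of the counts. Scarna10, Snord17, Snora73a and Snora73b together held 41.9% to 74.1% of the counts on members in every tumor. Per kilobase of gene, the mean level of Snord17 was 5392 CPM per kb in KO and 548 in WT, and that of Scarna10 was 964 and 1000.5. Snora73b stood at 2016 CPM per kb in KO and 283 in WT. The lowest named box C/D member on this scale, Snord98, stood at 10.2 and 20.1. In WT, Scarna10 was therefore the highest of these on the per-length scale and Snord17 the next, while in KO Snord17 was the highest, with a spread between KO tumors larger than its mean.

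The 67 members together took 0.0712% to 0.490% of all counts in KO (median 0.259%) and 0.0676% to 0.210% in WT (median 0.0794%). In KO the share was 0.490% in Massa, 0.193% in Medusa, 0.322% in Montana, 0.281% in Ohio, 0.0712% in Prince, 0.236% in Grilka, 0.351% in Zelda and 0.164% in Oregon. The N215 tumor held the highest WT share, and the other 7 WT tumors lay between 0.0676% and 0.114%, so 7 of the 8 KO tumors exceeded every WT tumor except N215 and Prince lay inside the WT range. On the log2 scale the mean share was 1.34 higher in KO, a value given without a test because it sums genes chosen by their counts.

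The ratio of box C/D to box H/ACA counts did not separate the genotypes. It was 4.27 in Massa, 0.781 in Medusa, 1.59 in Montana, 1.18 in Ohio, 1.49 in Prince, 0.459 in Grilka, 5.91 in Zelda and 0.583 in Oregon, and it ran from 0.807 to 2.82 in WT with medians of 1.33 in KO and 1.25 in WT. The KO tumors held both the highest and the lowest ratios, and the WT range lay inside theirs. The highest WT ratio belonged to the N25 lung tumor, and the 4 tumors of N42 ran from 0.807 to 1.15. The mean log2 ratio was 0.12 higher in KO, with an SD of 1.30 in KO and 0.563 in WT.

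This ratio was carried by 3 genes. Snord17 gave 79.4% to 94.8% of the box C/D counts, and Snora73a with Snora73b gave 61.2% to 86.5% of the box H/ACA counts. Without them the ratio was 0.285 to 1.01 in KO (median 0.573) and 0.714 to 1.63 in WT (median 1.06), so the order of the groups turned. In the same direction, the log2 ratio in KO minus that in WT was -2.54 when the median log2 CPM of each class was taken in place of the sum, and -0.47 without the most abundant member of each class. It also turned without Massa (-0.11), without Zelda (-0.18), without the N42 tumors (-0.28) and with counts summed per mouse (-0.13).

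**Figure D1:**
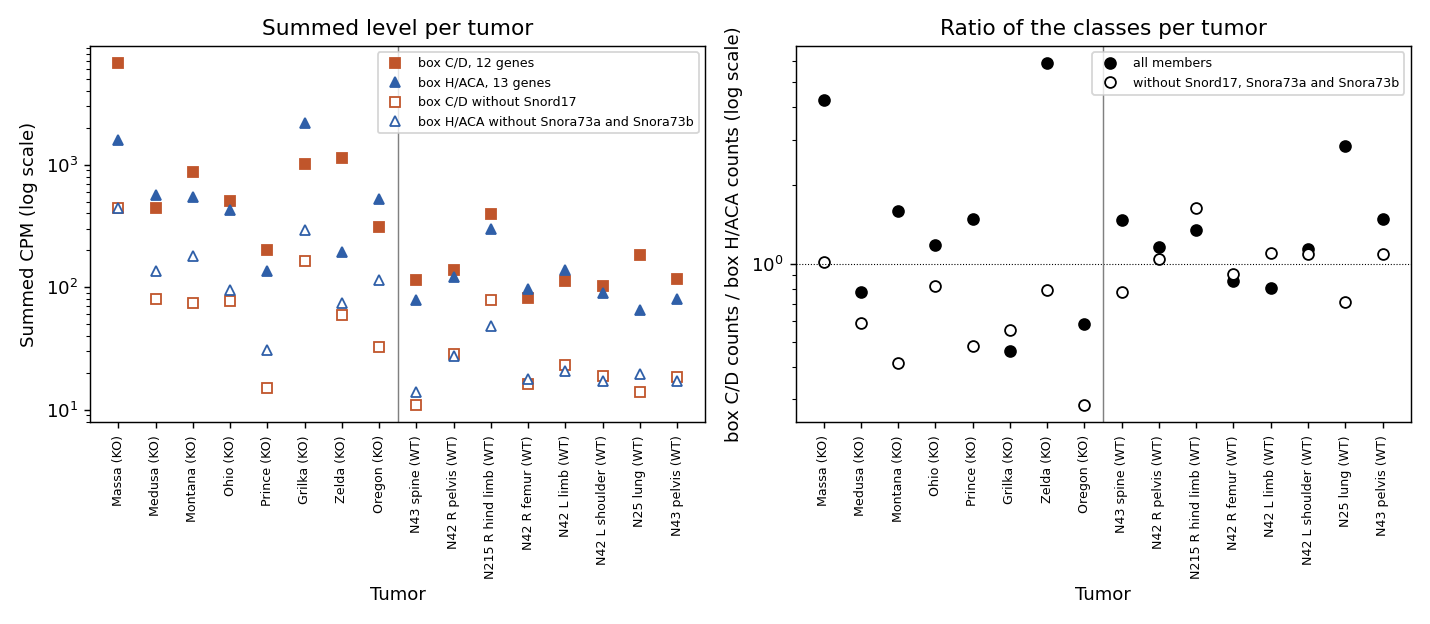
Box C/D and box H/ACA genes per tumor, on log axes. The left panel shows summed CPM of each class with filled symbols and without Snord17 or the Snora73 pair with open symbols; the right panel shows the ratio of their counts, from 0.459 to 5.91 in KO and 0.807 to 2.82 in WT.

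Most members that could be tested were higher in KO tumors. With edgeR's quasi-likelihood test over all 15413 genes with enough counts (adjusted p under 0.05), 52 members were tested, 29 were higher in KO and 0 were lower, where 4.01% of all tested genes were called, 1.86% higher and 2.15% lower. At an unadjusted p under 0.05 there were 39 members, against 23.0% of all genes, and all but 1 of those were higher in KO. The median log2 fold change was 2.0 over the tested members and 0.10 over all tested genes, and 46 members were above 0 and 6 below, with 55.9% of all genes above 0. The other 15 members had too few counts. The filter kept genes at about 0.921 CPM or more in at least 8 tumors. Of the 52, 31 reached this level in each of the 8 WT tumors, as did 20 of the 29 that were higher, and 2, of which 1 was higher, reached it in at most 3 WT tumors. Libraries of the KO tumors held fewer counts (median 5367669 against 14828152) and a larger rRNA share (median 5.80% against 0.149%), so a difference between the genotypes and one between libraries of this kind cannot be told apart. Fewer cells with a transcript and less transcript per cell cannot be told apart in tumor RNA.

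These calls were lost in fits that summed the tumors of a mouse, modeled the mouse as a random effect or left out the 4 N42 tumors. Such fits also had fewer WT samples or used another test, and the reason for the loss was not tested. Of the 29, 0 were called by edgeR with counts summed per mouse (35 members at an unadjusted p under 0.05, smallest adjusted p 0.215, 0.0625% of all genes called), 0 by limma-voom with a random effect for the mouse (31 members, smallest 0.138, 0.110% of all genes) and 0 by edgeR without the 4 N42 tumors (35 members, smallest 0.251, 0.0498% of all genes). With the rRNA share of each library as a covariate edgeR also called 0 (31 members, smallest 0.101, 0.0454% of all genes), and the members' median log2 fold change was 1.57. The members' median stayed between 1.44 and 2.10 in every fit that was run, while DESeq2, which gave an adjusted p for all 67, put 40 higher and 3 lower, where 12.5% of all genes were called and 7.76% were higher.

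Among the 12 box C/D members, 8 were tested and 2 were higher in KO (median log2 fold change 0.60). Snord17 (ENSMUSG00000077714), which guides methylation of the large subunit rRNA, was read at 6292 CPM in Massa, 365 CPM in Medusa, 796 CPM in Montana, 428 CPM in Ohio, 188 CPM in Prince, 841 CPM in Grilka, 1082 CPM in Zelda and 275 CPM in Oregon. In WT it was read at 66.2 to 320.0 CPM (median 102), and the groups overlapped only through N215, whose level exceeded those of Prince and Oregon. The log2 fold change was 3.30 ± 0.70 (SE, n = 8 and 8), edgeR adjusted p = 0.0159, and it was 2.12 without Massa. A two-sided exact permutation test of its log2 CPM gave p = 0.000622 over the 16 tumors and p = 0.0303 over the 8 KO and 4 WT mice, where the smallest possible values were 0.000155 and 0.00202.

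Snord15a (ENSMUSG00000065822), another guide for large subunit rRNA, was read at 5.48 to 444 CPM in KO (median 49.8) and 2.8 to 49 CPM in WT (median 5.72). It was highest in Massa (444) and Grilka (161), whereas Prince (5.48) lay below the WT median and N215 (49) lay just under the KO median. Its log2 fold change was 3.14 ± 0.83 (SE, n = 8 and 8), edgeR adjusted p = 0.0422, and it ran from 2.23 without Massa to 4.06 without N215. The exact permutation test gave p = 0.00544 over tumors and p = 0.0747 over mice.

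The other box C/D members did not pass. Snord118 (ENSMUSG00000064899), the U8 RNA that takes part in maturation of the large subunit rRNAs and has its own promoter, was read at 0 to 15.3 CPM in KO (median 6.23) and 0.495 to 14.2 CPM in WT (median 1.94), and the difference on the log2 scale was 0.91 (adjusted p = 0.440, edgeR). Snord104 lay at 0 to 5.7 CPM in KO (median 3.34) and 1.15 to 3.33 CPM in WT (median 2.14), with a difference of 0.65 (edgeR adjusted p = 0.319). Snord98 was 0 to 1.97 CPM in KO and 0.590 to 2.04 in WT, a log2 difference of -0.54 (adjusted p = 0.600, edgeR). Snord89 (-0.75) and Snord98 were the 2 tested box C/D members below 0. Snord55 was among the 4 not tested, at 0 to 3.63 CPM in KO and 0.194 to 4.99 in WT. In Massa, 9 of the 12 box C/D genes had no read, and a gene without a read there can still stand at up to 6.69 CPM (3 counts).

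All 13 box H/ACA members were tested, and 9 were higher in KO (median log2 fold change 1.88, all 13 above 0). Snora73b (ENSMUSG00000065353) and Snora73a (ENSMUSG00000064387), the mouse copies of the U17 RNA that takes part in cleavage of the precursor toward small subunit rRNA, were the most abundant. Snora73b was read at 64.6 to 1278 CPM in KO (median 254) and 29.3 to 143 CPM in WT (median 45.8), and 6 of the 8 KO tumors exceeded every WT tumor, the exceptions being Prince and Zelda. Its log2 fold change was 2.83 ± 0.59 (SE, n = 8 and 8), edgeR adjusted p = 0.0154. The exact permutation test gave p = 0.00155 over tumors and p = 0.0283 over mice. Snora73a was read at 40.8 to 614 CPM in KO (median 142) and 16.3 to 106 CPM in WT (median 29.3), and differed on the log2 scale by 2.22 ± 0.53 (SE, n = 8 and 8), edgeR adjusted p = 0.0266.

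Snora23 (ENSMUSG00000064451), a pseudouridylation guide in *Ipo7*, was read at 134 CPM in Massa, 84.7 CPM in Medusa, 97.4 CPM in Montana, 37.8 CPM in Ohio, 10.8 CPM in Prince, 43 CPM in Grilka, 35.3 CPM in Zelda and 62.9 CPM in Oregon. Its WT values ran from 4.49 to 19.96 CPM (median 6.37), and only Prince fell inside them. The log2 fold change was 2.89 ± 0.47 (SE, n = 8 and 8), edgeR adjusted p = 0.00476, with an exact permutation p of 0.000466 over tumors and 0.00606 over mice. The 4 tumors of N42 spanned 4.49 to 12.4 CPM, from the lowest to the next to highest WT value within a single mouse.

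Snora78 (ENSMUSG00000089255) was read at 2.74 to 53.5 CPM in KO (median 12.1) and 0.604 to 2.84 CPM in WT (median 1.27), and every KO tumor except Prince lay above all WT tumors. Its log2 fold change was 3.72 ± 0.63 (SE, n = 8 and 8), edgeR adjusted p = 0.00675. Snora57 (ENSMUSG00000070167) was read at 2.16 to 232 CPM in KO (median 14.5) and 1.71 to 5.44 CPM in WT (median 2.31), with Massa (232) and Grilka (156) far above the other KO tumors and Prince inside the WT range. The log2 fold change was 4.35 ± 0.84 (SE, n = 8 and 8), edgeR adjusted p = 0.0114, and 3.52 without Massa. Snora15 (ENSMUSG00000093413) was low in both groups, at 0.747 to 8.16 CPM in KO (median 4.24) and 0.150 to 0.826 CPM in WT (median 0.328). In 7 of the 8 KO tumors it exceeded every WT tumor, and the log2 fold change was 3.34 ± 0.53 (SE, n = 8 and 8), edgeR adjusted p = 0.00446. Its WT values all lay under the filter's level of about 0.921 CPM on this scale. The filter thus kept it mainly through its KO tumors, and its call lends no support to a difference. Snora15 overlaps an exon of its host, *Cct6a*, so reads of the host's transcript may be among them.

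Of the remaining box H/ACA members, Snora17 (1.83, edgeR adjusted p = 0.0399), Snora31 (1.88, 0.0146) and Snora21 (1.62, 0.0322) were higher in KO on the log2 scale. Snora31 was the most even of them among KO tumors, at 2.1 to 5.1 CPM in KO (median 4.15) and 0.389 to 2.95 CPM in WT (median 0.865). Such values lie under 3 counts in Massa (6.69 CPM), and 3 counts equal 4.03 CPM in Grilka, so this evenness is uncertain. Snora34, Snora41, Snora43 and Snora30 did not pass, with log2 fold changes of 1.69, 1.14, 0.51 and 0.40. Snora34 overlaps the microRNA gene *Mir1291*.

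The members with other names held 18 of the 29 calls among 31 tested (median log2 fold change 2.30). Gm24119 (ENSMUSG00000077167), an ACA gene by letters, was the only one of the 67 whose groups did not overlap, and 0.208% of all tested genes had KO values that all lay above WT. It was read at 205 CPM in Massa, 71 CPM in Medusa, 141 CPM in Montana, 35.9 CPM in Ohio, 41.3 CPM in Prince, 255 CPM in Grilka, 51.5 CPM in Zelda and 111 CPM in Oregon. In WT it ran from 8.22 to 35.6 CPM (median 11.3), with N215 the highest and just below Ohio. The log2 fold change was 2.95 ± 0.47 (SE, n = 8 and 8), edgeR adjusted p = 0.00430.

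Gm25776 (ENSMUSG00000080365), an ACA gene in an intron of *Gtf2a1*, was read at 43.2 to 888 CPM in KO (median 162) and 3.96 to 78.7 CPM in WT (median 10.7). Grilka (888) and Massa (600.0) were highest, and the log2 fold change was 3.89 ± 0.77 (SE, n = 8 and 8), edgeR adjusted p = 0.0122, or 4.74 without N215. Gm22486 (ENSMUSG00000080465), a C and D gene over an exon of *Ptcd3*, was read at 2299.6 CPM in Massa and at 48.3 to 216 CPM in the other 7 KO tumors, against 7.73 to 58.3 in WT. Its log2 fold change was 4.38 ± 0.95 (SE, n = 8 and 8), edgeR adjusted p = 0.0173, and 2.41 without Massa, where it still passed. Gm25117 (ENSMUSG00000087819) was the most even of the abundant members, at 14.9 to 58.9 CPM in KO (median 28.7) and 4.2 to 15.1 CPM in WT (median 6.35), and differed on the log2 scale by 2.03 ± 0.33 (SE, n = 8 and 8), edgeR adjusted p = 0.00494.

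Some members varied widely between KO tumors. Gm25291 (ENSMUSG00000084744) was read at 424 CPM in Montana, 292 in Oregon and 211 in Grilka, at 23.9 to 42.8 in Medusa, Ohio, Prince and Zelda, and not at all in Massa, with 6.62 to 26.5 CPM in WT. Its log2 fold change was 3.21 ± 0.79 (SE, n = 8 and 8), edgeR adjusted p = 0.0334, while an exact permutation of its log2 CPM values gave p = 0.261 over tumors. Montana and Oregon were also the tumors with the high muscle markers, and the part of muscle in this gene was not tested. Without both, edgeR called 25 of 64 tested members, all higher in KO, and 372 of 16508 genes in all (an alternative added after the data were seen). Gm26493 was read at 80.3 CPM in Massa and 0 to 15.6 in the other KO tumors, a log2 difference of 3.66 (adjusted p = 0.0246, edgeR) that was 2.33 without Massa. Gm24727, Gm24336 and Gm23262 had no read in Massa and differences of 1.84, 1.63 and 0.58, none of which passed.

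Scarna10, the most abundant member by count, lay at 67.1 to 689.7 CPM in KO (median 299.9) and 169 to 664 CPM in WT (median 271) and differed on the log2 scale by -0.05 ± 0.42 (SE, n = 8 and 8), edgeR adjusted p = 0.960. The groups overlapped, with Massa and Grilka below every WT tumor and the highest KO value above every WT value. Its gene overlaps an exon of *Ncapd2*. At the low end, Gm23722 had no read in 5 KO tumors, at most 1.7 CPM in the other 3 and 0.953 to 4.13 CPM in WT, and the log2 difference of -2.10 did not pass (adjusted p = 0.0711, edgeR). Gm23722 was the lowest of the 6 members below 0, and its host *Rnf149*, a ubiquitin ligase gene, was at -1.25 (edgeR adjusted p = 0.0682).

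**Figure D2:**
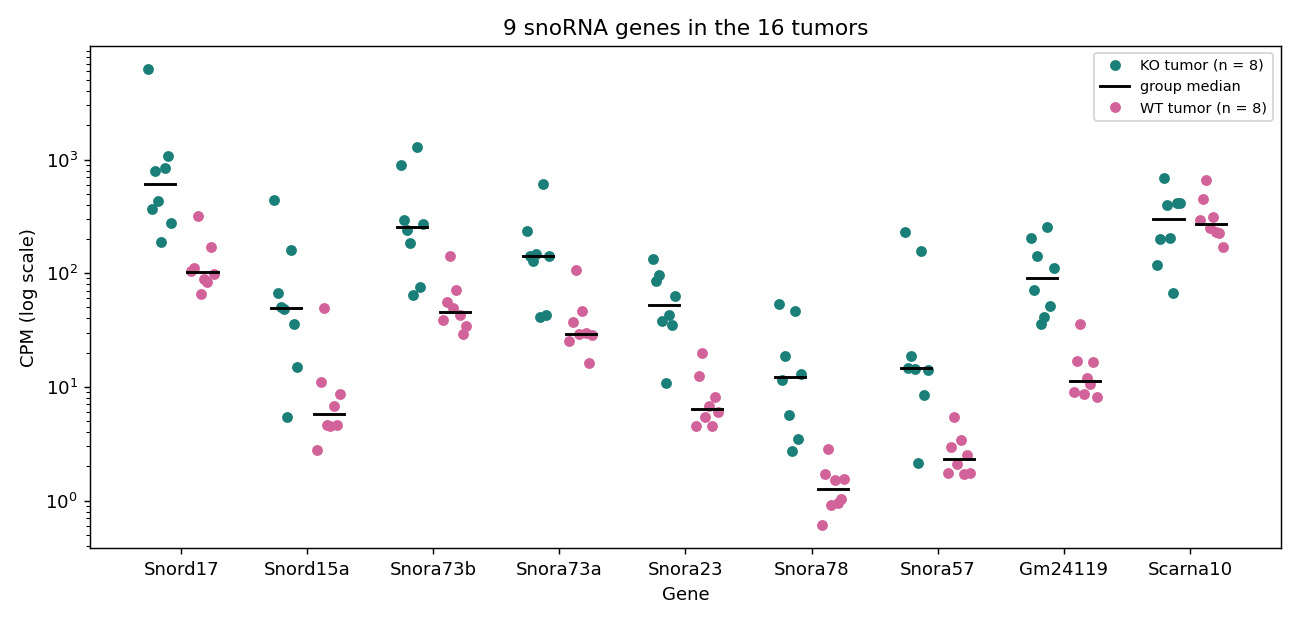
CPM of 9 members in each tumor, on a log axis, with black bars at the group medians. Gm24119 is the member without overlap of KO and WT. Scarna10 overlaps, with KO values on both sides of the WT range, and the highest Snord17 point is Massa at 6292 CPM.

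The calls were not spread evenly over lengths and letters. Of the 47 tested members of 110 bases or longer, 29 were higher in KO, and of the 5 shorter ones 0 were. Of these 5, 0 were at an unadjusted p under 0.05 in edgeR and 0 were called by DESeq2. Too few counts kept 8 of the 13 shorter members from the test, against 7 of the 54 longer ones. DESeq2 calls among these untested members were not split by length, so most shorter members are not described here. The median log2 fold change was 2.22 for the longer and 0.11 for the shorter members. The 2 box C/D genes that were higher, Snord17 and Snord15a, were the longest of their class. By letters, 25 of 34 tested ACA genes, 4 of 11 C and D genes and 0 of 7 with neither were higher (medians 2.44, 0.65 and 0.91), although 3 of the last 7 were at an unadjusted p under 0.05 and 3 were called by DESeq2. Across the 52 tested members Spearman's rho between length and log2 fold change was 0.36, a description across genes that share the same 16 libraries. The difference between these subsets was not tested.

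**Figure D3:**
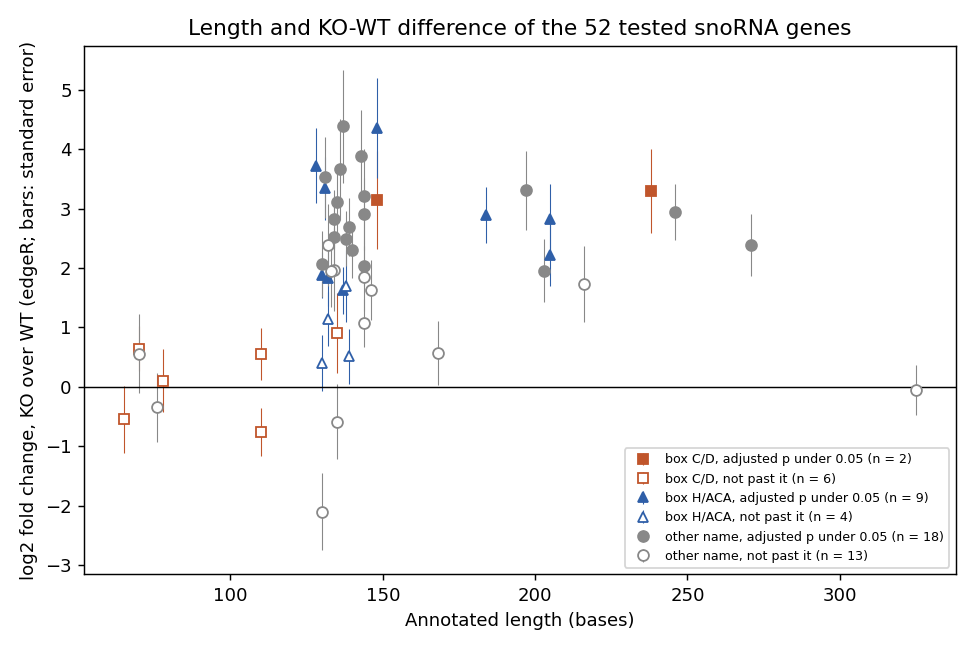
Annotated length and log2 fold change of the 52 tested members, with standard errors. Filled symbols passed at an adjusted p under 0.05; the 29 filled symbols all lie at 110 bases or longer, and the 5 shorter members lie near 0, with a median of 0.11.

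There were 62 members within a host gene on the same strand and 56 such hosts, of which 55 were tested. Of these, 0 were higher in KO (8 at an unadjusted p under 0.05 in either direction, or 14.5% against 23.0% of all genes, and 3 higher with DESeq2, which put 7.76% of all genes higher) and 1, *Mertk*, a receptor of phagocytic cells that holds the untested Gm23172, was lower (-1.57, edgeR adjusted p = 0.0313). This call was 1.82% of the hosts, against 4.01% of all genes, and it was lost per mouse (adjusted p = 0.568, edgeR) and with limma-voom (adjusted p = 0.543). The hosts' median log2 fold change was 0.12, against 0.10 over all genes. In 38 of the 46 tested members with a tested host the snoRNA's fold change exceeded the host's, by a median of 2.14 on the log2 scale. Spearman's rho between the 2 fold changes was 0.19 over these 46 pairs, as a description. Of 5 macrophage markers, 4 were lower in KO in the same fit (all 5 summed to 179 to 2007 CPM in KO and 479.9 to 1749 in WT). These 4 calls were lost as well, with adjusted p of 0.266 to 0.453 per mouse (edgeR) and 0.243 to 0.610 with limma-voom, and the part of macrophages in *Mertk* was not tested.

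The host *Snx5*, a sorting nexin gene, was at 62.9 to 224 CPM in KO (median 86.5) and 68.2 to 123 CPM in WT (median 103), a log2 difference of 0.12 (adjusted p = 0.827, edgeR). The counts of Snord17 divided by those of *Snx5*, which do not depend on the library's scaling, were 2.95 to 72.3 in KO (median 4.69) and 0.725 to 3.12 in WT (median 0.981). *Rcc1*, the exchange factor of the Ran GTPase, was at -0.05, and the ratio of Snora73b to it was 3.02 to 79.3 in KO (median 12.9) and 1.49 to 5.93 in WT (median 2.37). Because 2 genes span Snora73b on its strand, *Rcc1* was taken as the one with more counts, and the ratio to the other was not computed. For Snora23 and *Ipo7*, a nuclear import receptor gene, the ratio was 0.0954 to 1.58 in KO (median 0.496) and 0.0334 to 0.105 in WT (median 0.0496), and 7 of the 8 KO tumors exceeded all WT tumors. For Snora15 and the chaperonin gene *Cct6a* all 8 did, at 0.0102 to 0.0700 in KO (median 0.0514) and 0.00169 to 0.00903 in WT (median 0.00365). Snora15 was, however, kept by the low-count filter mainly through its KO tumors.

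The pair of Gm22362 and *Ybx3*, a Y-box protein gene, differed from these. *Ybx3* was at 2.1 (edgeR adjusted p = 0.0859), Gm22362 at 1.97 (edgeR adjusted p = 0.104), and their count ratio was 0 to 0.0208 in KO (median 0.0114) and 0.00846 to 0.0231 in WT (median 0.0123). Both were high in Montana and Oregon, where Gm22362 was read at 22.2 and 19 CPM against at most 2.23 in the other KO tumors. *Pabpc4*, a poly(A)-binding protein gene, holds Gm25788 and Gm22154. It was at 1.20 (edgeR adjusted p = 0.0991), and Gm25788 was at 3.52 ± 0.68 (SE, n = 8 and 8), edgeR adjusted p = 0.0114.

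**Figure D4:**
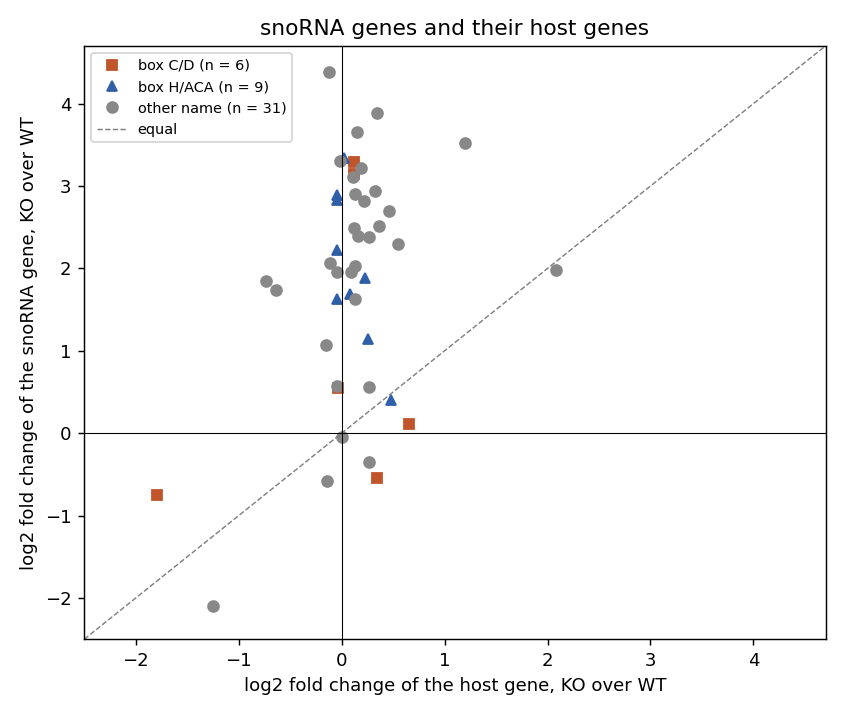
Log2 fold change, KO over WT, of 46 snoRNA genes and of the host gene each lies in. Most hosts lie near 0 (median 0.12) while 38 of the 46 snoRNA genes lie above the dashed line of equality.

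Several members are near copies, and reads of 50 cycles could have been shared among them by the alignment. Rnu3b1 and Rnu3b3, U3 genes of the particle that cleaves the rRNA precursor, are identical over 216 bases, and their separate counts are uncertain. Gm25788 and Gm22154 were identical at 96.9% of aligned positions, Snora73b and Snora73a at 96.6%, and Gm25291 at 93.8% to Gm24727 and 92.4% to Gm25117. Gm25776 and Gm25848 were identical at 89.6%, and Gm26448 at 88.3% to Snora73a. Members of such a family did not all share a pattern. Gm25117 was even across KO tumors while Gm25291 was highest in Montana and Oregon and Gm24727 in Grilka (73.8 CPM). Gm26448 was higher in KO at 1.95 ± 0.53 (SE, n = 8 and 8), edgeR adjusted p = 0.0460.

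Single tumors differed in how far the members lay above WT. Relative to the WT mean of log2 CPM, the median over the 52 tested members was 2.72 in Montana, 2.51 in Grilka, 1.89 in Ohio, 1.76 in Oregon, 1.71 in Medusa, 1.38 in Zelda, 1.34 in Massa and 0.47 in Prince. Montana exceeded every WT tumor in 41 of the 52 members and Ohio in 40, whereas Prince did so in 8. Among WT tumors N215 stood apart, with a median of 1.07 and a level above all other WT tumors in 38 of the 52 members, and the other 7 ran from -0.44 to 0.22. N215 also had the highest rRNA share of the WT libraries (1.59%) and the next to lowest osteoblast marker sum (4813 CPM). Without N215 edgeR called 33 of 60 tested members, 32 of them higher in KO, and without Massa 32 of 62, of which 31 were higher. Calls over all genes rose in the same fits. They were 923 of 15829 without N215 and 964 of 15955 without Massa, against 618 of 15413 with all tumors. Medusa and Ohio as the only KO tumors, both with low sums of the muscle, lung, liver and salivary gland markers, gave 14 members, all higher, with 4.45% of all genes called (a choice made after the data were seen).

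Of the 29 calls, 21 were made in each of the 16 fits that left out 1 tumor. The other 8 were Snord15a, Snora73a, Snora17, Snora21, Gm25291, Gm26448, Gm24888 and Gm26493, and all 8 were lost without the N43 spine tumor and without the N42 right pelvis, left limb or left shoulder tumor. All but Gm26493 were also lost without the N42 right femur tumor. Among KO tumors, leaving out Montana or Grilka ended the calls of Snord15a, Snora17, Snora21, Gm25291, Gm26448 and Gm24888, and leaving out Massa ended that of Snord15a. Leaving out Medusa, Ohio, Oregon, the N25 tumor or the N43 pelvis tumor also ended calls, each of them those of Gm26448 and Gm24888 and of at most 4 others. Each kept a log2 fold change above 0, the lowest being 1.38 for Snora17 without Grilka.

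**Figure D5:**
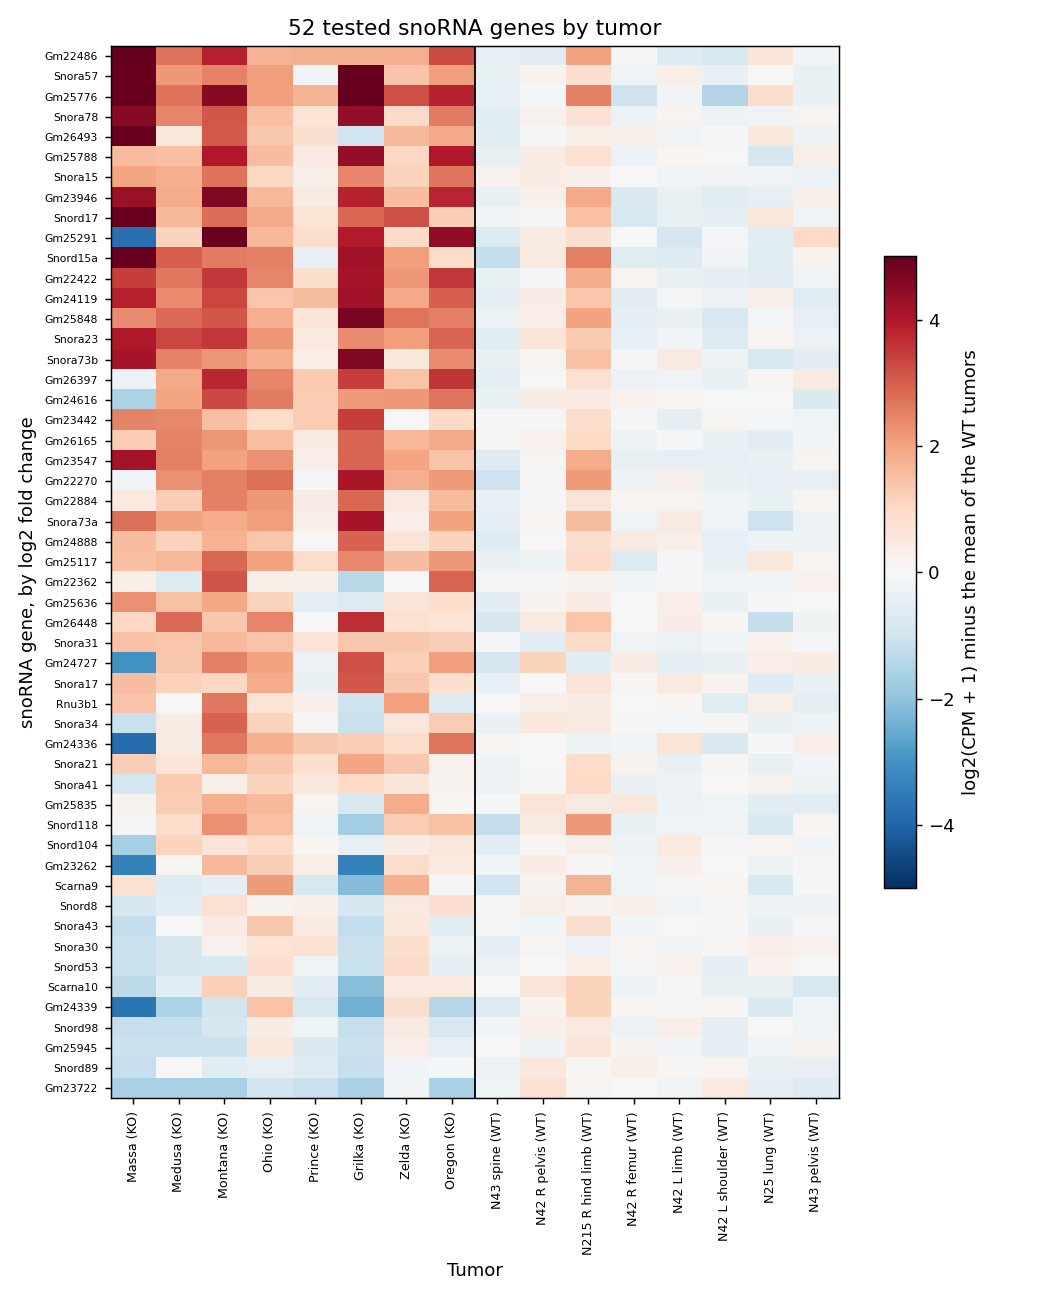
Tested members by tumor, colored by log2(CPM + 1) minus the mean of the 8 WT tumors, limited to 5 in either direction, and ordered by log2 fold change. By log2 CPM with a prior count of 2, a scale other than the one drawn, Ohio lies above the WT mean in 50 of the 52 members and Zelda in 49. On that scale the number was 45 for Montana, 42 for Oregon, 41 for Medusa, 37 for Prince and 32 each for Massa and Grilka. N215 is the WT column that stands above the rest.

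The proteins that build and process snoRNA particles were read from a list of 51 genes, of which 50 were tested. In edgeR 0 of them passed, 13 (26%) were at an unadjusted p under 0.05 against 23.0% of all genes, and 38 were above 0 (median log2 fold change 0.21). DESeq2 called 5, all higher in KO, where it called 12.5% of all genes and put 7.76% of them higher. The share at an unadjusted p under 0.05 lay near that of all genes. The share above 0 was larger, at 76% of the list against 55.9% of all genes, and this difference was not tested. *Fbl* (fibrillarin) was at 8.92 to 35.9 CPM in KO (median 17.4) and 7.53 to 25.4 CPM in WT (median 17.9), a log2 difference of 0.10 ± 0.31 (SE, n = 8 and 8), edgeR adjusted p = 0.880. *Dkc1* (dyskerin) was at 8.92 to 63.3 CPM in KO (median 26.1) and 14 to 36.9 CPM in WT (median 18), with 0.45 ± 0.37 (SE, n = 8 and 8), edgeR adjusted p = 0.505. Of the other core proteins of box C/D particles, *Nop56* was at 1.41 (edgeR adjusted p = 0.0724), *Nop58* at 0.06 and *Snu13* at 0.02. Of those of box H/ACA particles, *Gar1* was at 1.07 (edgeR adjusted p = 0.154), *Nop10* at 0.21 and *Nhp2* at -0.12.

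By role, against the same 23.0%, 3 of the 14 assembly factors, 4 of the 10 proteins of the U3 particle and 4 of the 18 processing and decay factors tested were at an unadjusted p under 0.05, with medians of 0.16, 0.47 and 0.18. *Nop56* was read at 26.1 to 199 CPM in KO (median 58.9) and 17.6 to 61.7 CPM in WT (median 34.7), highest in Grilka (199), Medusa (192) and Ohio (152), and Massa, with the most Snord17, had 26.8 CPM.

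Other small structured RNAs were counted in the same comparison. Of the genes typed as scaRNA 4 of 11 tested were higher in KO (median log2 fold change 1.83), of snRNA genes 9 of 18 (2.07), of misc_RNA genes 8 of 20 (1.48) and of rRNA genes 2 of 2 (4.65), and 0 of these were lower, against 183 of 13132 protein-coding genes higher and 311 lower (median 0.11). The RNA component of RNase MRP, *Rmrp*, was at 4.32 to 732 CPM in KO (median 18) and 1.5 to 12.6 CPM in WT (median 5.62) with a log2 difference of 4.17 (adjusted p = 0.0371, edgeR). The highest *Rmrp* value was that of Massa, the shallowest library, and the next KO tumor, Montana, had 41.8 CPM. Its log2 difference was 1.57 in DESeq2 and 1.52 in limma-voom. The signal recognition particle RNA *Rn7s2* was at 579 to 337551 CPM in KO (median 10736) and 189 to 1473 CPM in WT (median 388), with 6.73 ± 1.46 (SE, n = 8 and 8), edgeR adjusted p = 0.0178. In contrast, *Rn7sk*, which restrains transcription elongation, was at -0.37 (edgeR adjusted p = 0.723). Of these 4 types, 0 genes were called by edgeR with counts summed per mouse (37 at an unadjusted p under 0.05, smallest adjusted p 0.183), by limma-voom with mice as random (25, smallest 0.218), by edgeR without the N42 tumors (38, smallest 0.251) and with the rRNA share as a covariate (10, smallest 0.200). DESeq2 called 57 of 191 higher and 1 lower, where it called 12.5% of all genes and put 7.76% of them higher. Per mouse, *Rmrp* had an adjusted p of 0.565 and *Rn7s2* of 0.548 (edgeR).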

How the data were processed

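The values were the whole-number counts per gene deposited by the authors for 16 tumors. Per the paper's methods, the authors aligned reads with Novoalign 2.08.01 to mm10 and Ensembl build 74 transcript models, allowed many alignments per read, kept the best, counted reads per gene with USeq and ran DESeq2 1.26.0. Strand is not given in the sources used here, so reads of a snoRNA, of an overlapping exon and of an antisense gene cannot be told apart. The smallest gene total in the table was 6.

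Gene types, positions, hosts (a gene spanning the member on the same strand) and sequences came from GENCODE vM21 (GRCm38), which held 24974 of 25054 gene identifiers and all 67 members. Where several genes spanned a member (Snora73a, Snora73b, Snora30 and Gm24401), the one with the most counts was used as the host. Members and gene lists were chosen with earlier results of these data known. edgeR 4.0.16 (R 4.3.3) used TMM factors, filterByExpr (minimum count 10, minimum total 15), glmQLFit and glmQLFTest on all tested genes, two-sided, with Benjamini-Hochberg adjustment at 0.05. CPM are counts over the summed counts of tested genes times the TMM factor. Permutation tests enumerated 12870 splits of tumors, or 495 of mice after averaging log2 CPM within a mouse. They were run on 23 genes and their p-values are unadjusted. DESeq2 1.42.0, limma 3.58.1 and other settings were alternatives. The fits were tested on simulated counts. Named genes were the 6 box C/D, 6 box H/ACA and 2 other members with the highest CPM per kb, up to 5 with the smallest p, those without overlap, the 5 most variable in KO, genes with textbook roles, hosts, core proteins and genes at the minimum. Further members named in the text were chosen after their values were seen. Counts below 3 limit low levels, and these limits cover counting error only.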

Additional observations from a re-analysis of the deposited data

Results flagged for a closer look

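In groups of 8 tumors, 48 sets of values were checked on the log2 scale for a tumor set far apart from the rest. The rule was a gap to its nearest neighbor above 0.526 of the range. By this rule 7 were found, where chance gives about 1 in 20. For CPM, a count of 0 took a log2 value set by the prior count of 2, so the flags at 0 depend on that choice. Massa, the library with the fewest counts, had 0 CPM of Snord104 (next lowest KO tumor 1.34), 0 CPM of Gm25291 (next 23.9), 0 CPM of Gm24336 (next 18.4) and 0 CPM of Gm24727 (next 5.64). A count of 0 in Massa allows up to 6.69 CPM, so the values of Gm25291 and Gm24336 lie below those of the other KO tumors beyond this limit, and those of Snord104 and Gm24727 do not. Massa had the highest Gm22486 of all tumors, at 2299.6 CPM, where the next KO tumor had 216. Grilka had 0 CPM of Snord118 (next 1.91), which allows up to 4.03 CPM. In WT, the share of counts on members was 0.210% in the N215 right hind limb tumor and 0.114% in the next.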

How the results depend on the processing

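No paired analysis was possible because the KO and WT tumors share no mice. With Medusa and Ohio as the only KO tumors, an alternative chosen after the data were seen, edgeR called 14 snoRNA genes (13 of the 29) and 4.45% of all genes. Of the snoRNA genes, 0 were called with counts summed per mouse, with limma-voom and the mouse as random, with the rRNA share as covariate and without the N42 tumors. The cause was not tested. Leaving out 1 tumor gave 21 to 33 calls, where 252 to 1348 of all genes were called, and 21 of the 29 were called in all 16 such fits. With library totals in place of TMM, 20 of 52 were called, and 567 of 15413 over all genes. The median of all genes moved from 0.10 to -0.33, against which the members stood 1.76 higher.

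Of particle proteins, 5 were called by DESeq2, 3 with Medusa and Ohio only, 2 without the 2 smallest libraries and 0 to 3 without 1 tumor. Over all genes, DESeq2 called 12.5%, Medusa and Ohio only gave 4.45%, and 890 of 16610 were called without the 2 smallest libraries. Of hosts, DESeq2 called 6, where it called 12.5% of all genes. With edgeR per mouse, library totals, limma-voom, the rRNA covariate, without Montana and Oregon (chosen after the data were seen) or without N42, 0 hosts were called, with 0 to 3 without 1 tumor.

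The log2 ratio of box C/D to box H/ACA counts (0.12) turned to -2.54 with medians over members, -0.47 without the most abundant gene of each class, -2.78 with classes by length, -1.04 with classes by letters (chosen after the data were seen), -0.28 without N42 and -0.13 per mouse, and ran from -0.18 to 0.35 without 1 tumor. In Massa and Grilka the box C/D median over members was a count of 0. The log2 share of counts on members (1.34) ran from 1.19 to 1.58 without 1 tumor and kept its direction in every alternative. Snord98 turned to 0.0037 with the rRNA covariate. Of the values of single named genes under alternatives, 440 kept their call, 119 lost it, 7 gained it and 1 turned.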

Other observations

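The noncoding hosts, whose spliced transcripts are known mainly as carriers of snoRNAs, did not pass where tested, and *Snhg9*, which holds Snora78, had too few counts. *Snhg18*, which holds Snord123, was read at 4.08 to 29.5 CPM in KO (median 16.7) and 8.78 to 85.3 CPM in WT (median 38.4), a log2 difference of -1.18 (adjusted p = 0.141, edgeR). *Gm15832*, which holds Snord89, was at -1.79 (adjusted p = 0.0663, edgeR), and *Zfas1*, which holds Gm23201, at -0.32 (adjusted p = 0.643, edgeR). *Snhg3*, an exon of which overlaps Snora73a, was at -0.53 (adjusted p = 0.475, edgeR).

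Among snoRNA genes under the minimum, Snord13, which takes part in acetylation of small subunit rRNA, lay at 0.280 to 6.69 CPM in KO (median 1.31) and 0.194 to 0.794 in WT (median 0.473). The highest value, in Massa, rests on 3 counts. *Rpph1*, the RNA of the enzyme that trims the ends of transfer RNA precursors, was at 12619.9 to 235287 CPM in KO (median 36878) and 6092 to 77534 CPM in WT (median 8480.0), and the highest WT value was again that of N215.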
